A study of Homo sapiens with 6 samples.

Results

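The genes of the G1/S transition described here are cyclins, cyclin-dependent kinases (CDKs) and CDK inhibitors, chosen by gene symbol: the D cyclins CCND1 and CCND3, the E cyclins CCNE1 and CCNE2, the kinases CDK2, CDK4 and CDK6, and the inhibitors CDKN1A, CDKN1B and CDKN2C. Of these 10 genes, 9 were matched to a probe set and belong to the 18417 genes tested, and CDKN2C was not analysed here. Each of the 9 had 1 probe set. Expression was measured on 6 arrays of Du145 cells, an established human prostate carcinoma line, in 3 groups of 2 arrays. Control cells are labelled as such with no hairpin or virus named. The shTSC2 cells had been infected with a lentivirus to knock down TSC2, which restrains the growth kinase mTORC1. The shTSC2-adapted cells were infected in the same way and are labelled as adapted from the knockdown, without a statement of what the adaptation was. Cells of all 3 groups received 10% serum in a high-glucose medium, and RNA was taken after 24 h at 1% oxygen. Separate cultures are not stated for the arrays of a group, so each p-value measures the spread between these 6 arrays alone, and that spread may be technical. Infection and lower TSC2 cannot be told apart here.

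Cells leave G1 when D cyclins bound to CDK4 or CDK6, and then E cyclins bound to CDK2, phosphorylate the RB protein and so free the E2F transcription factors. The CIP/KIP inhibitors p21 (CDKN1A) and p27 (CDKN1B) bind cyclin-CDK complexes, whereas the INK4 inhibitors bind CDK4 and CDK6 alone. Much of this control acts on protein stability and phosphorylation, which arrays of RNA do not measure, and Du145 is known to lack intact RB and to carry mutant p53.

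The promoter windows of the 4 genes that changed in at least one comparison are shown for their GC boxes and E-boxes, the letters known to be bound by SP1 and by MYC, whose own changes are given further on. Each runs from 250 bases before to 50 bases after a gene start in RefSeq (GRCh38.p14), 5′ to 3′ on the gene's strand. The CDKN1A window belongs to a start inside the span of the gene. Capitals mark matches, on either strand, to the GC box GGGCGG and to the E-box CACGTG.
CCNE1, chr19:29811741-29812040, plus strand: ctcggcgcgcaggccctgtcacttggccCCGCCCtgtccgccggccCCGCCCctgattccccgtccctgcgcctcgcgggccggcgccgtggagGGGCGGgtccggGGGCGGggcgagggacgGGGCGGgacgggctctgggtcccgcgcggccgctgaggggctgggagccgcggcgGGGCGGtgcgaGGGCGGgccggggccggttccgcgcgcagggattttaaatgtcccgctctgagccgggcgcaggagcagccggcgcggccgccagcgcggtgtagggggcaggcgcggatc
CDK4, chr12:57752261-57752560, minus strand: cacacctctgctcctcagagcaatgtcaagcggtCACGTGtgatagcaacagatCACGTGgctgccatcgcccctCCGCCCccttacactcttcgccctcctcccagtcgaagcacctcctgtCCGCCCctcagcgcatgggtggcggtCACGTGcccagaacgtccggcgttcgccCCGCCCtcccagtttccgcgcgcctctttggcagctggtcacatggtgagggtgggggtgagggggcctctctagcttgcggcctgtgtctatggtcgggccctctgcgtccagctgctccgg
CDKN1A, chr6:36678464-36678763, plus strand: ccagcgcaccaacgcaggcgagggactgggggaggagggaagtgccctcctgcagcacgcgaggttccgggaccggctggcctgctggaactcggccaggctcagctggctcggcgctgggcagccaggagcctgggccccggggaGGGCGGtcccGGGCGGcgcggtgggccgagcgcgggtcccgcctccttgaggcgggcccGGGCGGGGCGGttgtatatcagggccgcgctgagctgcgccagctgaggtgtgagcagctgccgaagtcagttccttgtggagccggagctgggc
CDKN1B, chr12:12717118-12717417, plus strand: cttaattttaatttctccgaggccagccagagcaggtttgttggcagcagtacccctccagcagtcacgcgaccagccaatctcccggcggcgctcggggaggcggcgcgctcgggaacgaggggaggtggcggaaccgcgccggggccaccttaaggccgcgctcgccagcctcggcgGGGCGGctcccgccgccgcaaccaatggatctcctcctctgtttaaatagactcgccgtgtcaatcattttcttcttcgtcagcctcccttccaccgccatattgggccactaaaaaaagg

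CCNE1 held 7 GC boxes and no E-box. CDK4 held 3 E-boxes, whose first bases lie at -216, -196 and -101 from the start, and 3 GC boxes. CDKN1A held 4 GC boxes, of which those at -45 and -40 overlap by 1 base, and CDKN1B held 1. Over the windows of 14239 tested genes, 60.0% held a GC box and 8.88% an E-box. RefSeq windows were matched for 6 of the 9 genes. In the windows not printed, CCND3 had 5 GC boxes and CDK6 had 3 with 1 E-box. CDKN1B also had 3 CCAAT matches (36.3% of all windows) and CCND3 had 1 match to the FOXO letters GTAAACA (2.45%). None of the 6 windows matched the E2F letters TTTNNCGC (8.95% of all windows), TGACGTNA (3.98%), TGANTCA (5.58%), TTTGAA (11.9%) or TATAAA (9.0%). All motifs, GGGCGG, TTTNNCGC and CCAAT among them, were searched on both strands. A match describes letters and not a site in use.

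Levels below are log2 intensities of single arrays. A change is the difference between 2 group means on that scale, given with its standard error (SE; n = 2 arrays in each group). Rose and fell name the sign of that difference between separate samples, and not a course in time. Every adjusted p is from limma and two-sided, with Benjamini-Hochberg adjustment over the genes of that fit, and a gene passed at 0.05. The main fit, of all 6 arrays, adjusted over 18417 genes, and some alternative settings over another number. Median array intensities were 58.1 to 63.1. TSC2 was lower on the arrays of both infected groups (6.67 and 6.55 in shTSC2, 6.54 and 6.48 in shTSC2-adapted) than on the control arrays (7.52 and 7.59). The call for TSC2 in shTSC2-adapted (adjusted p = 0.0241) ended with a replicate block (0.0515) and when single arrays were left out, namely without control 1 (0.386), control 2 (0.373), shTSC2-adapted 1 (0.169) or shTSC2-adapted 2 (0.0973). Of 6 epithelial markers, the keratins KRT8, KRT18 and KRT7 stood at 10.12 to 11.50 on all arrays, KRT19 at 6.97 to 8.93, EPCAM at 6.06 to 8.42 and CDH1, E-cadherin, at 5.54 to 7.54. Of 6 prostate luminal markers 3 were measured, and they lay between 3.86 and 5.60.

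The first comparison asked how the G1/S genes differ between shTSC2 and control cells in hypoxia. CCNE1, CDK4 and CDKN1A rose, CDKN1B fell, and CCND1, CCND3, CCNE2, CDK2 and CDK6 did not pass. These 4 of 9 genes stand beside 20.8% of all genes that changed. Since the members and the lists below were chosen with earlier results of these data known, such counts are no test of an excess. In single directions, 3 rises stand beside 6.87% of all genes, and 1 fall beside 13.9%. That split of all genes, 1266 up and 2567 down, was 1802 and 2257 after median centring of the arrays. The median change of the 9 genes was 0.24, against 0.025 over all genes. Without control 1 the count was 2, CCNE1 and CDKN1B, and without control 2 it was 1, CCNE1.

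**Figure D1:**
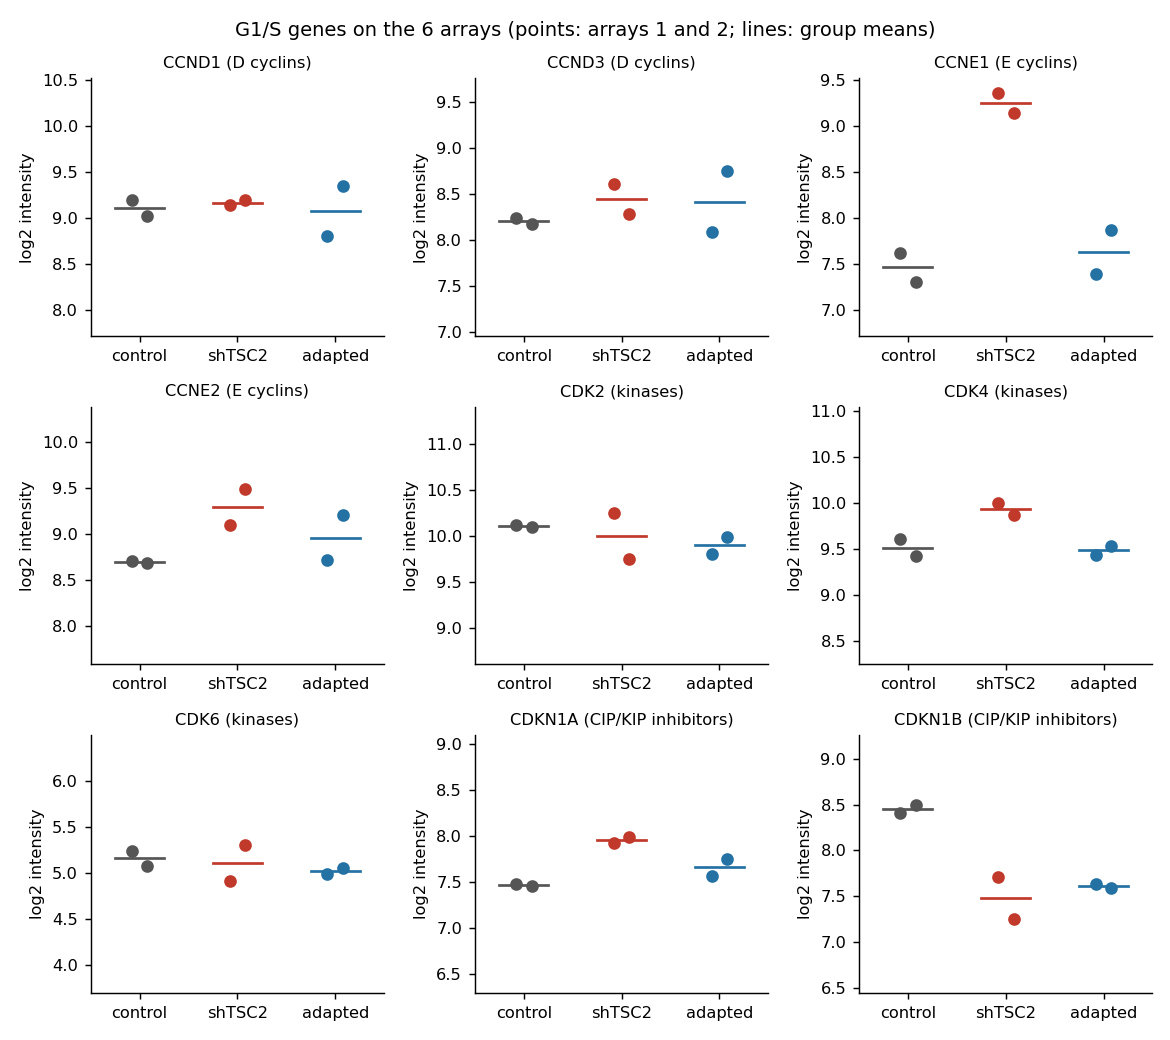
Log2 intensity (y axis, of the same height in every panel) of the 9 G1/S genes in control, shTSC2 and shTSC2-adapted Du145 cells; points are single arrays (array 1 left, array 2 right) and lines are means of 2 arrays. CCNE1 is high only on the shTSC2 arrays (9.36 and 9.14), whereas CDKN1B is low on all 4 arrays of infected cells (7.26 to 7.71, against 8.41 and 8.50 in control).

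CCNE1, the cyclin that activates CDK2 at the end of G1, showed the largest change of the 9 genes in this comparison. Its log2 intensity was 7.62 and 7.30 in control, 9.36 and 9.14 in shTSC2, and 7.39 and 7.87 in shTSC2-adapted. Both shTSC2 arrays lay above the other 4, whose ranges overlapped. CCNE1 rose by 1.79 in shTSC2 (SE 0.18, 95% interval 1.36 to 2.22, adjusted p = 0.00102), a 3.46-fold difference that ranked 81 among 18417 genes by size. It was lower in shTSC2-adapted than in shTSC2 by a change of -1.62 (SE 0.18, 95% interval -2.05 to -1.19, adjusted p = 0.00332), rank 50 by size. Against control, shTSC2-adapted stood at 0.17 (95% interval -0.26 to 0.60, adjusted p = 0.800). Both of these differences of shTSC2, from control and from shTSC2-adapted, passed in all 16 alternative settings, with changes of 1.63 to 1.95 and -1.86 to -1.38.

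CCNE2, the second E cyclin, followed in the same direction with less change. Control arrays read 8.70 and 8.68, shTSC2 arrays 9.09 and 9.49, and shTSC2-adapted arrays 8.71 and 9.20. Every array of both infected groups was above both control arrays, by 0.02 to 0.80 above the control mean. The change in shTSC2 was 0.60 (SE 0.19, 95% interval 0.16 to 1.04), which did not pass (adjusted p = 0.0609) in the fit of all arrays. It passed with quantile normalization (0.64, adjusted p = 0.042), median centring (0.66, 0.0432) and dim genes left out (0.0343). It also passed with only the 4 arrays compared (0.0394), array weights (0.0423) and a replicate block (0.0317). In the other settings with all arrays it did not pass. Without single arrays the change was 0.40 to 0.80. Leaving out an shTSC2-adapted array repeats the fit of only the 4 arrays compared. In shTSC2-adapted the change against control was 0.27 (adjusted p = 0.650), and against shTSC2 it was -0.34 (95% interval -0.77 to 0.10, adjusted p = 0.301).

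The D cyclins, which carry growth signals to CDK4 and CDK6, did not pass in any comparison. CCND1 read 9.20 and 9.02 in control, 9.14 and 9.19 in shTSC2, and 8.80 and 9.35 in shTSC2-adapted, so the shTSC2-adapted pair spanned the other 4 arrays. Its change was 0.06 in shTSC2 (95% interval -0.35 to 0.46, adjusted p = 0.863) and -0.04 in shTSC2-adapted (-0.44 to 0.37, adjusted p = 0.972). The intervals do not show that CCND1 was equal between groups. CCND3 read 8.24 and 8.18 in control, 8.61 and 8.29 in shTSC2, and 8.09 and 8.75 in shTSC2-adapted. Its change was 0.24 in shTSC2 (-0.25 to 0.73, adjusted p = 0.478) and 0.21 in shTSC2-adapted (-0.28 to 0.70, adjusted p = 0.781).

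Of the kinases, CDK4, a partner of the D cyclins, changed, while CDK2 and CDK6 did not pass. CDK4 read 9.61 and 9.43 in control, 10.00 and 9.88 in shTSC2, and 9.44 and 9.54 in shTSC2-adapted. The shTSC2 arrays were above the other 4 arrays, and the control and shTSC2-adapted ranges overlapped. CDK4 rose by 0.42 in shTSC2 (SE 0.11, 95% interval 0.17 to 0.67, adjusted p = 0.0314), a 1.34-fold difference. Between shTSC2 and shTSC2-adapted CDK4 changed by -0.45 (SE 0.11, adjusted p = 0.0355), and shTSC2-adapted stood at -0.03 against control (-0.28 to 0.22, adjusted p = 0.957). The rise did not pass without control 1 (0.51, adjusted p = 0.0865), control 2 (0.33, 0.240) or shTSC2 1 (0.36, 0.0862), nor after a correction for the trend of change with gene length (0.32, 0.0641). The shTSC2-adapted difference from shTSC2 did not pass with only the 4 arrays compared (adjusted p = 0.0765) or array weights (0.075). Nor did it pass with the gene length correction (-0.36, 0.0655) or a replicate block (0.0527). Without single arrays the change was -0.51 to -0.39. Leaving out a control array repeats the fit of only the 4 arrays compared.

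CDK2, the partner of the E cyclins, read 10.12 and 10.10 in control, 10.25 and 9.75 in shTSC2, and 9.80 and 9.99 in shTSC2-adapted. The shTSC2 arrays lay on both sides of the control arrays, and the changes were -0.11 in shTSC2 (-0.50 to 0.28, adjusted p = 0.692) and -0.22 in shTSC2-adapted (-0.60 to 0.17, adjusted p = 0.685). CDK6, the other partner of the D cyclins, was dim, with a mean at the 26.2 percentile of the genes tested. It read 5.24 and 5.08 in control, 4.91 and 5.30 in shTSC2, and 4.99 and 5.06 in shTSC2-adapted. The shTSC2 arrays spanned the other 4. Its change in shTSC2 was -0.06 (-0.39 to 0.28, adjusted p = 0.827), a sign that turned in 4 of the 15 settings that kept the gene: with each array centred on its median (0.005), after the gene length correction (0.224), and without control 1 (0.025) or shTSC2 1 (0.14).

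The 2 CIP/KIP inhibitors moved in opposite directions in shTSC2. CDKN1A, which encodes p21, read 7.47 and 7.45 in control, 7.92 and 7.99 in shTSC2, and 7.56 and 7.75 in shTSC2-adapted. The 3 groups did not overlap, with shTSC2-adapted in between. CDKN1A rose by 0.50 in shTSC2 (SE 0.10, 95% interval 0.25 to 0.74, adjusted p = 0.0142), a 1.41-fold difference, and this call ended without control 1 (0.51, adjusted p = 0.0999) or control 2 (0.49, 0.117). In shTSC2-adapted its change was 0.20 against control (-0.05 to 0.44, adjusted p = 0.513) and -0.30 against shTSC2 (-0.54 to -0.06, adjusted p = 0.108).

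CDKN1B, which encodes p27, read 8.41 and 8.50 in control, 7.71 and 7.26 in shTSC2, and 7.64 and 7.59 in shTSC2-adapted. All 4 arrays of infected cells lay below both control arrays, and those of the infected groups overlapped. CDKN1B fell by 0.97 in shTSC2 (SE 0.15, 95% interval -1.32 to -0.62, adjusted p = 0.00429), which left 0.511 of the control intensity, and the call ended without control 2 (-0.93, adjusted p = 0.0543). In shTSC2-adapted it stood at -0.84 (SE 0.15, 95% interval -1.19 to -0.49), which ranked 109 by size among all genes and did not pass (adjusted p = 0.0778). That difference passed with quantile normalization (0.0494), dim genes left out (0.0455), only the 4 arrays compared (0.0206) and array weights (0.0170). In the other settings with all arrays it did not pass. Leaving out an shTSC2 array repeats the fit of only the 4 arrays compared and is no further support. The 2 infected groups differed by 0.13 (-0.22 to 0.48, adjusted p = 0.637).

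The second comparison asked what separates adapted knockdown cells from control. None of the 9 genes passed with limma, beside 0.261% of all genes that changed (0.0543% rose and 0.206% fell). At an unadjusted p under 0.05 there was 1 of the 9, CDKN1B, beside 12.6% of all genes, a share near its own. The median change of the 9 genes was -0.03, against -0.005 over all genes. Both comparisons with control use the same control arrays.

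The third comparison set shTSC2-adapted against shTSC2 cells directly. CCNE1 and CDK4 fell and none of the 9 rose, beside 12.5% of all genes that changed (3.24% fell and 9.25% rose). The median change was -0.11, against -0.025 over all genes. CCNE1 alone passed without any one array except shTSC2 2, the array whose absence left both.

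**Figure D2:**
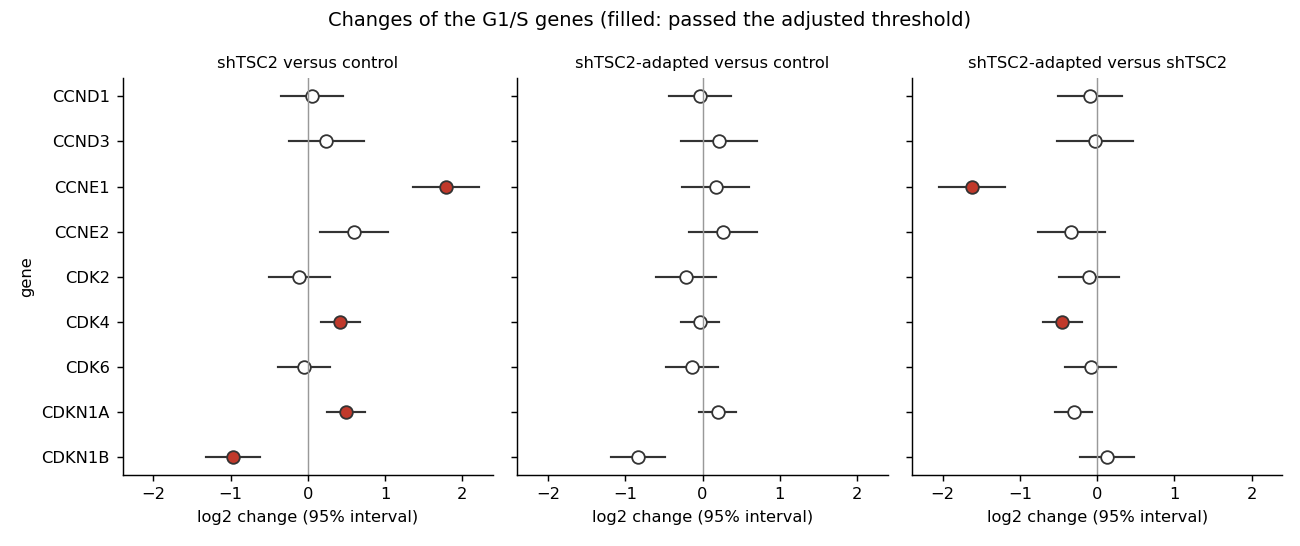
Log2 change with its 95% interval (x axis) of each G1/S gene in the 3 comparisons, from limma over 18417 genes; filled points passed the adjusted threshold of 0.05. CCNE1 stands at 1.79 in shTSC2 and 0.17 in shTSC2-adapted against control, CDKN1B at -0.97 and -0.84, and the D cyclins, CDK2 and CDK6 have intervals across 0 in each panel.

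The 9 genes differed mostly in one direction between the 2 shTSC2-adapted arrays, and mostly in the opposite direction between the 2 control arrays. On shTSC2-adapted 2, 8 of 9 genes were higher than on shTSC2-adapted 1, by 0.66 for CCND3, 0.55 for CCND1, 0.49 for CCNE2 and 0.48 for CCNE1, with CDKN1B at -0.05. The median gap over the 9 genes was 0.19, against 0.02 over all genes. In control and shTSC2, 1 and 4 of 9 genes were higher on the second array, with median gaps of -0.06 and -0.12. Over all genes, 52.9% were higher on shTSC2-adapted 2, 48.1% on control 2 and 46.2% on shTSC2 2. Leaving out shTSC2-adapted 2 put CCNE1 at -0.07 and CCND3 at -0.12 against control.

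Related genes were also set against each other on each array, as a description with no test. The log2 ratio of CCNE1 to CCNE2, relative to its control mean, was 1.5 and 0.88 in shTSC2, and it was -0.09 and -0.10 in shTSC2-adapted, against 0.15 and -0.15 in control. Both shTSC2 arrays were above the control range and both shTSC2-adapted arrays were inside it. The ratio of CDKN1A to CDKN1B was 1.21 and 1.73 in shTSC2 and 0.92 and 1.16 in shTSC2-adapted, against 0.06 and -0.06 in control. All 4 arrays of infected cells were above the control arrays. The ratio of CDK4 to CDK6 was 0.73 and 0.22 in shTSC2 and 0.09 and 0.12 in shTSC2-adapted, and that of CCND1 to CCND3 lay between -0.37 and 0.06 on all 6 arrays.

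**Figure D3:**
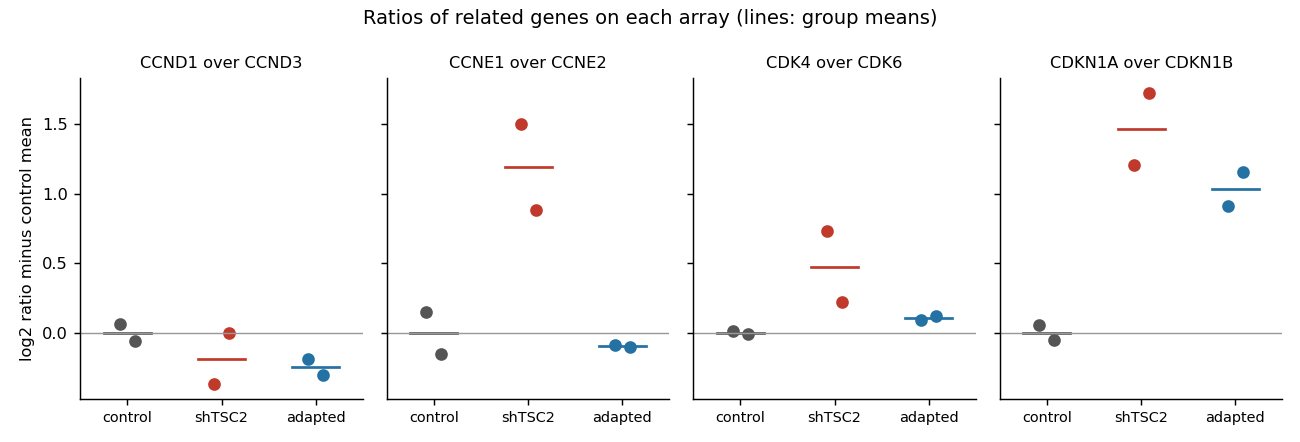
Log2 ratio of related genes on each array minus the mean ratio of the control arrays (y axis) for 4 pairs; points are single arrays and lines are means of 2 arrays. CCNE1 over CCNE2 is raised on the shTSC2 arrays (mean 1.19) and not on the shTSC2-adapted arrays (mean -0.10), while CDKN1A over CDKN1B is raised in both (means 1.47 and 1.04).

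The genes whose centred log2 values over the 6 arrays lay closest to those of CCNE1 were PTGER4, a prostaglandin receptor (root mean square difference 0.134), COXFA4L3 (0.153), FOSB, an AP-1 subunit (0.159), IGFBP3, an insulin-like growth factor binding protein (0.186), and PTGS2, the inducible prostaglandin synthase (0.207). Their changes against control were 1.5 to 1.98 in shTSC2 and 0.065 to 0.275 in shTSC2-adapted. The closest to CDKN1B were MRS2 (0.0739), KDM5B, a histone demethylase (0.0844), FAM83D (0.0893), BRD8 (0.0894) and FERMT2 (0.0903), at -1 to -0.78 in shTSC2 and -0.815 to -0.655 in shTSC2-adapted. These genes were picked for their closeness over the same 6 arrays, so their like changes follow from that choice. The share of all genes that lie so close was not computed.

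Among 13 other G1/S cyclins, CDKs, activators and inhibitors, 2 rose and 3 fell in shTSC2 (median change -0.09), and 8 did not pass. Calls in this list and those below stand beside 20.8% of all genes in shTSC2 (6.87% rose, 13.9% fell). In shTSC2-adapted against shTSC2 they stand beside 12.5% (9.25% rose, 3.24% fell). CDC25A, the phosphatase that activates CDK2, read 6.95 and 6.78 in control, 8.13 and 8.52 in shTSC2, and 7.62 and 7.98 in shTSC2-adapted, and rose by 1.46 in shTSC2 (SE 0.17, adjusted p = 0.00158). In shTSC2-adapted it stood at 0.94 (adjusted p = 0.0818), above both control arrays. CDKN2B, the INK4 inhibitor p15, read 6.93 and 7.24 in control, 8.29 and 8.09 in shTSC2, and 7.26 and 7.32 in shTSC2-adapted. It rose by 1.11 in shTSC2 (SE 0.13, adjusted p = 0.00168) and fell by 0.90 from shTSC2 to shTSC2-adapted (adjusted p = 0.00671; -0.87 and 0.0502 without shTSC2-adapted 1). CCNA2, the cyclin of S phase and G2, fell by 1.09 (adjusted p = 0.00162), and CDKN3, a phosphatase of CDKs, by 0.97 (adjusted p = 0.000765). Both were higher in shTSC2-adapted than in shTSC2 (0.63, adjusted p = 0.0216, and 0.70, adjusted p = 0.00432). The CCNA2 rise did not pass without either control (0.0636), shTSC2-adapted 1 (0.0761) or shTSC2-adapted 2 (0.103). In shTSC2-adapted against shTSC2, 2 of the 13 rose and 1 fell, and without shTSC2-adapted 1 the total was 1.

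Of 13 genes of the RB and E2F family, 3 rose and 4 fell in shTSC2, with a median change of 0.03. Of all genes, 6.87% rose and 13.9% fell there. E2F1, an activator of S phase genes, rose by 1.05 (SE 0.12, adjusted p = 0.00155), from 7.56 on both control arrays to 8.73 and 8.48, with 8.22 and 8.03 in shTSC2-adapted. E2F7, a repressor of the family, rose by 0.98 (adjusted p = 0.00197). TFDP2, a dimer partner of the E2Fs, fell by 1.32 (adjusted p = 0.000596) and E2F5 by 0.91 (adjusted p = 0.00209). From shTSC2 to shTSC2-adapted 2 rose and 3 fell, beside 9.25% and 3.24% of all genes. TFDP2 (0.86, adjusted p = 0.00454) and the RB relative RBL2 (0.52, 0.0310) rose, and E2F7 (-0.60, 0.0219) and E2F2 (-0.58, 0.0150) were among the falls. The total of 5 became 3 without control 1, control 2 or shTSC2 1, 2 without shTSC2-adapted 2, and 1 without shTSC2-adapted 1. RBL2 did not pass without either shTSC2 or either shTSC2-adapted array (adjusted p between 0.0501 and 0.13), and E2F2 did not without shTSC2-adapted 1 (0.0865). E2F7 did not pass without any one array except shTSC2 1 (0.0509 to 0.121).

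Of 16 genes listed for the ubiquitin ligases that act on G1/S proteins, 1 rose and 5 fell in shTSC2 (median -0.23), and fewer passed without control 2. The list includes USP28, a deubiquitinase, which did not pass. The 1 rise and 5 falls stand beside 6.87% and 13.9% of all genes. DTL, the adaptor that targets p21 and CDT1, rose by 0.70 (adjusted p = 0.00232). FZR1, an activator of the anaphase-promoting complex in G1, fell by 0.99 (adjusted p = 0.000740), and the cullin CUL4B by 0.84 (adjusted p = 0.00751; 0.0829 without control 2). SKP2, which targets p27 for degradation, read 10.18 and 10.14 in control, 10.81 and 10.44 in shTSC2 and 10.44 and 10.86 in shTSC2-adapted, and did not pass in shTSC2 (0.47, adjusted p = 0.1). SKP2 is named here after its values were seen. From shTSC2 to shTSC2-adapted FZR1 (0.57, adjusted p = 0.00869) and the cullin CUL3 (0.47, adjusted p = 0.0293) rose. FZR1 did not pass without shTSC2-adapted 1 (0.0543), and CUL3 did not without any array except shTSC2 2 (0.0631 to 0.128). The count of 2 was 1 without control 1, control 2, shTSC2 1 or shTSC2-adapted 2, was 0 without shTSC2-adapted 1, and was 4 without shTSC2 2.

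Of 22 p53 targets measured beside CDKN1A, 6 rose and 5 fell in shTSC2 (median 0.14), with 5 passing without control 1 and 4 without control 2. The 6 rises and 5 falls stand beside 6.87% and 13.9% of all genes. GADD45A, a stress-induced growth arrest gene, rose by 1.93 (SE 0.28, adjusted p = 0.00360) and the nuclease gene AEN by 1.07 (adjusted p = 0.000793). TP53INP1 fell by 1.21 (adjusted p = 0.0286, between 0.0548 and 0.182 without either control or either shTSC2-adapted array) and CCNG1, cyclin G1, by 0.93 (adjusted p = 0.00504; 0.0543 without control 2). From shTSC2 to shTSC2-adapted 4 rose and 3 fell, a total of 7 that became 2 without control 1, control 2 or shTSC2-adapted 1 and 3 without shTSC2-adapted 2. CCNG1 (0.76, adjusted p = 0.0187; 0.0578 to 0.108 without either control or either shTSC2-adapted array) and MDM2, the ligase of p53 (0.64, 0.0128; 0.0752 without shTSC2-adapted 1), rose. The polo-like kinase PLK2 (-1.55, 0.00111) and GADD45A (-1.08, 0.0488) fell, the latter call being lost without either control (0.108), shTSC2 1 (0.0675), shTSC2 2 (0.143) or shTSC2-adapted 2 (0.0935).

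Of 19 transcription factors known to act on the G1/S genes, 5 rose and 4 fell in shTSC2 (median -0.02), and 4 in all passed without either control. FOS and ATF3 rose by 2.32 and 2.02 (adjusted p = 0.00948 and 0.00258), the FOS call being lost without control 1 (0.0761) or control 2 (0.071). SP1, a factor known to bind GC boxes, fell by 1.09 (adjusted p = 0.000805) and FOXM1 by 1.00 (adjusted p = 0.00189). MYC, a factor known to bind E-boxes, stood at 0.09 in shTSC2 (adjusted p = 0.686). MYC is named here after its values were seen. The 5 rises and 4 falls of this list stand beside 6.87% and 13.9% of all genes. From shTSC2 to shTSC2-adapted SP1 (0.77, adjusted p = 0.00516) and FOXM1 (0.65, 0.0169) rose and FOS (-2, 0.0259) and KLF4, an activator of CDKN1A (-0.92, 0.00282), fell. In all 3 rose and 2 fell, and the total was 2 without control 1, control 2 or shTSC2-adapted 2. The FOS and FOXM1 calls were lost without either control (0.0676 and 0.0518) and without shTSC2-adapted 2 (0.134 and 0.0699), and that of FOS also without shTSC2-adapted 1 (0.0608).

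The mitotic cyclins and the genes that control CDK1 are given beside them. Of 9, 7 fell and 1, PKMYT1, rose in shTSC2, beside 13.9% and 6.87% of all genes. The median change was -1.08, against 0.24 for the 9 G1/S genes, and this difference between lists was not tested. Without control 2 the total was 5. CCNB2 and CCNB1, the B cyclins of mitosis, fell by 1.76 and 1.68 (adjusted p = 0.000363 and 0.000491) and rose from shTSC2 to shTSC2-adapted by 1.06 and 0.77 (adjusted p = 0.00333 and 0.0104), the CCNB1 rise not passing without shTSC2-adapted 2 (0.06). PKMYT1, a kinase that inhibits CDK1, rose by 0.60 (adjusted p = 0.0207), and did not pass without control 2 (0.138) or shTSC2 2 (0.0529). In shTSC2-adapted against shTSC2, 4 rose and none fell, and 2 passed without control 1 or control 2 and 1 without shTSC2-adapted 2. In shTSC2-adapted against control the median of these 9 genes was -0.61, and none passed with limma. At an unadjusted p under 0.05 there were 7 of the 9, beside 12.6% of all genes. The other 5 lists had no call in that comparison either. At that unadjusted threshold they had 5 of 13 other G1/S genes, 5 of 13 RB and E2F genes, 6 of 16 ligase genes, 10 of 22 p53 targets and 4 of 19 transcription factors. Without shTSC2 1 or shTSC2 2, 4 of the 9 mitotic genes fell in that comparison, 1 other G1/S gene and 1 ligase gene rose, and 1 p53 target fell.

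**Figure D4:**
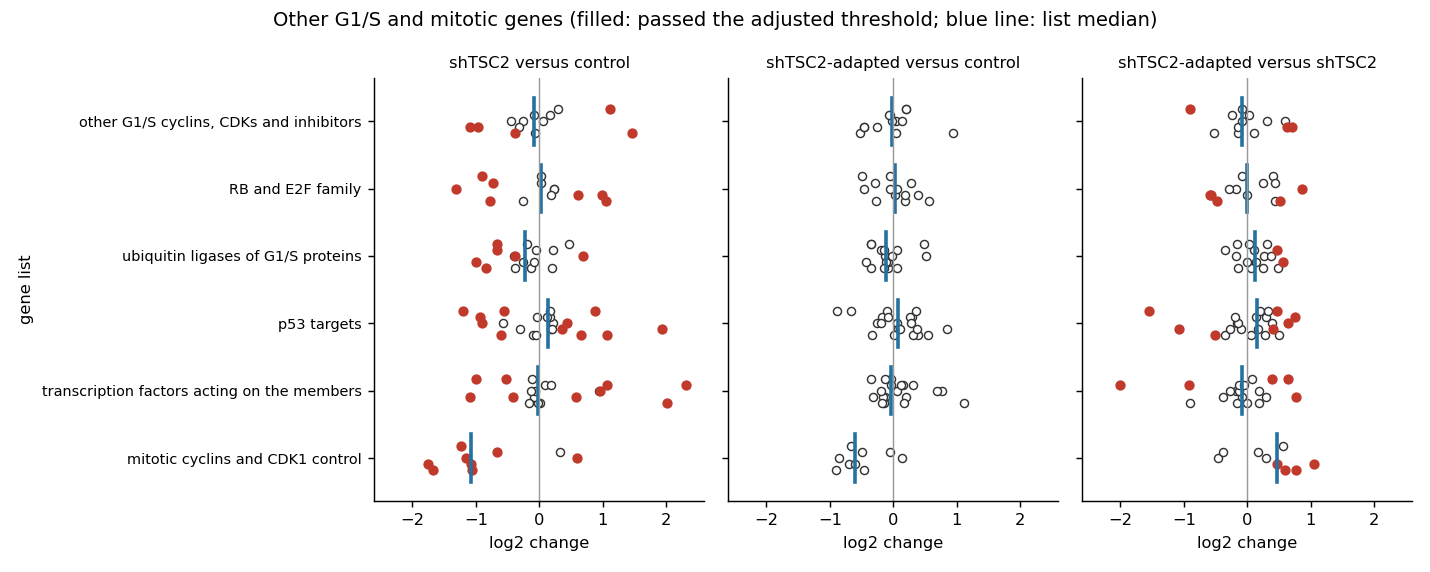
Log2 change (x axis) of every measured gene of 6 lists around the G1/S genes in the 3 comparisons; filled points passed the adjusted threshold of 0.05, open points did not, and blue lines are list medians. The mitotic list has its median at -1.08 in shTSC2 and -0.61 in shTSC2-adapted against control, and the other 5 medians lie between -0.23 and 0.15 in all 3 panels.

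Epithelial markers of the line and markers of other cells also differed between groups. Their calls stand beside 20.8% of all genes in shTSC2 and 12.5% in shTSC2-adapted against shTSC2. Of 6 epithelial markers, KRT7 rose in shTSC2 (0.44, adjusted p = 0.0225) and KRT19 (-1.38, 0.00664) and EPCAM (-1.29, 0.0271) fell. Between shTSC2 and shTSC2-adapted, 3 of the 6 rose and none fell, in the comparison where CCNE1 and CDK4 fell: EPCAM by 1.65 (adjusted p = 0.0173), KRT19 by 1.55 (0.00772) and CDH1 by 1.54 (0.00756), the last named here after its values were seen. CDH1 stood at 1.4 in shTSC2-adapted against control (adjusted p = 0.068; 0.0494 with quantile normalization and 0.017 with array weights). The summed linear intensity of the 6 was 6450 to 6850 in control, 7340 to 7690 in shTSC2 and 7710 to 7760 in shTSC2-adapted. None of the 3 shTSC2 calls was left without control 1 and 1, KRT19, without control 2. The total was 2 without shTSC2 1 (EPCAM at 0.0593) or shTSC2 2 (KRT7 at 0.0649). EPCAM did not pass against shTSC2 without shTSC2-adapted 1 (0.059) or shTSC2-adapted 2 (0.0992).

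The summed intensity of 10 lymphoid and myeloid markers was 520 to 522 in control, 678 to 686 in shTSC2 and 546 to 570 in shTSC2-adapted. FCER1G and CD68 rose in shTSC2, 8 of the 10 did not pass and none fell. CD68, the brightest of the 10, read 7.80 and 7.70 in control and 8.41 and 8.33 in shTSC2. FCER1G was dim, at 4.51 and 4.65 in control and 5.40 and 5.01 in shTSC2. PTPRC stood at 3.49 to 3.58 on all arrays. From shTSC2 to shTSC2-adapted FCER1G fell (-0.68, adjusted p = 0.0342). The summed intensity of 7 embryonic kidney line markers was 520 in both control arrays, 599 to 688 in shTSC2 and 570 to 729 in shTSC2-adapted. NEFM and PAX2 rose in shTSC2, and 5 of these 7 did not pass. That of 8 neuroendocrine markers was 353 to 354, 403 to 438 and 338 to 342. SCG5 and SNAP25 rose in shTSC2, and 6 of these 8 did not pass. SCG5 read 4.81 and 4.75 in control and 5.70 and 5.62 in shTSC2. From shTSC2 to shTSC2-adapted SCG5 and SNAP25 fell (-0.58, adjusted p = 0.0122, and -0.51, 0.0369). That of 10 stromal and endothelial markers was 433 to 450, 472 to 483 and 468 to 485, with none passing in shTSC2 with limma and 1 of 10 under an unadjusted p of 0.05, beside 33.3% of all genes. Without either shTSC2-adapted array 1 of these 10 rose in shTSC2.

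Many of these calls were lost when 1 array was left out. Neither kidney line marker passed in shTSC2 without control 1 or control 2. Of the 2 lymphoid and myeloid rises 1 was left without control 1 or shTSC2 1 and 0 without control 2, and 1 of the 2 neuroendocrine rises was left without either control or either shTSC2 array. In shTSC2-adapted against shTSC2, leaving out any array except shTSC2 2 ended the FCER1G call (0.0581 to 0.179), SNAP25 did not pass without any 1 of the 6 arrays (adjusted p of 0.054 to 0.18), and SCG5 did not without shTSC2-adapted 2 (0.0644). The part of these markers in the G1/S results was not tested. In bulk RNA a change in the share of cells in a cycle phase and a change of message per cell cannot be told apart.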

How the data were processed

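The deposited table holds 1 linear intensity for each probe set and array, and per the submitters' processing notes the authors used RMA to make it. RMA makes array distributions alike, so a shift of most genes would be partly removed. For RMA no version, and for the arrays no genome build, is given in the sources used here. The deposited intensities were turned into log2 values, all within 6.99e-10 of a number with 2 decimals. Arrays have no read depth, and 2 arrays per group limit the precision.

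Of 33297 probe sets, 19460 had 1 gene symbol in the platform annotation, 1754 several and 12083 none. The probe set with the highest mean was kept for each of 18417 genes. Groups came from the labels. limma 3.58.1 (R 4.3.3) was fitted to all 6 arrays (lmFit, contrasts.fit, eBayes, 3 residual degrees of freedom), with Benjamini-Hochberg adjustment over all genes. It was tested on simulated data. The members and lists were chosen with earlier results of these data known.

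Named genes were the members, TSC2, the 2 largest rises and falls that passed in each list and comparison, the genes closest in pattern, and others said to be chosen later. The 16 alternatives were quantile normalization, median centring, dim genes left out, every probe set tested, the mean of a gene's probe sets, only the 4 arrays compared, array weights, a trended robust prior, the gene length trend removed (loess on log10 span in GRCh38.p14), a replicate block, and leaving out each array. In each comparison, leaving out an array of the group not compared gives the same fit as only the 4 arrays compared. The 16 settings are therefore not 16 separate fits. Adjustment was over 19460 probe sets with every probe set tested, and over 18389 genes with the gene length correction. With dim genes left out, it was over only the genes whose mean was at or above the median of all genes. A lower adjusted p in that setting can come from the smaller number of genes alone.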

Additional observations from a re-analysis of the deposited data

How the results depend on the processing

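Changes are log2 differences with limma. CCNE1 passed in all 16 settings in shTSC2 against control and in shTSC2-adapted against shTSC2.

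Leaving out single arrays gave 1 to 5 G1/S genes called in shTSC2 against control, 0 to 1 in shTSC2-adapted against control, and 1 to 2 in shTSC2-adapted against shTSC2. Over all genes these counts were 1175 to 3895, 0 to 248 and 837 to 2600, against 3833, 48 and 2300 with all arrays. The lowest came without control 2 in the first and without shTSC2-adapted 1 in the last, and in the second 0 genes passed without either control or either shTSC2-adapted array. A fit of fewer arrays has fewer residual degrees of freedom.

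In shTSC2-adapted against control, 1 G1/S gene, CDKN1B, fell with quantile normalization, with dim genes left out, with only the 4 arrays compared and with array weights. The genes called there were 94, 121, 248 and 437 in those settings and 90 with median centring. In shTSC2-adapted against shTSC2, 1 G1/S gene passed with only the 4 arrays compared, array weights, the gene length correction or the replicate block. With only the 4 arrays compared 1113 genes passed. The cause was not tested.

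Deviations of arrays with the same number correlated at -0.102 for control and shTSC2, at -0.187 for control and shTSC2-adapted and at 0.212 for shTSC2 and shTSC2-adapted. These values are mixed, the labels state no pairing, and the numbers were not used to pair arrays in the main results. With the replicate block the G1/S genes called were 5, 0 and 1 in the 3 comparisons in the order above, and the genes called in shTSC2-adapted against control were 1. The block also ended the TSC2 call there (-1.05, adjusted p = 0.0515).

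Signs turned only for changes that were not called. In shTSC2 against control, CDK6 was 0.005 with median centring, 0.224 with the gene length correction and -0.25 to 0.14 without single arrays, CCND1 -0.035 to 0.145 and CDK2 -0.36 to 0.14, and CDH1 was 0.071 with the gene length correction. In shTSC2-adapted against control, single arrays left out gave CCND1 -0.31 to 0.24, CCND3 -0.12 to 0.54, CCNE1 -0.07 to 0.41 and CDK4 -0.12 to 0.06. In shTSC2-adapted against shTSC2 they gave CCND1 -0.365 to 0.185, CCND3 -0.36 to 0.30, CDK2 -0.355 to 0.145, CDK6 -0.275 to 0.115 and CDKN1B -0.095 to 0.355. With 2 arrays in each group, changes of the size of the D cyclins could not be told from 0, and CDK6 was dim.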
